A study of Mus musculus with 6 samples.

Results

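The motile cilia genes were taken as every gene of the count table whose mouse symbol begins with Dnah, Dnai, Dnaaf, Cfap, Rsph, Tekt or Drc followed by a digit, together with Foxj1, Mcidas, Ccdc39, Ccdc40, Rp1 and Pifo. This rule, which uses symbols alone, found 73 of 56884 genes. RNA was sequenced from 6 ectopic endometriosis lesions, 3 wild-type (WT) and 3 Dnmt3a knockout (KO), with 1 library for each lesion. WT lesions grew from uterine tissue of Dnmt3a f/f donors, which carry the floxed gene without Cre, and KO lesions from Dnmt3a f/f:PR Cre/+ donors. All donors were 8-week-old females that had received 17β-estradiol, and all recipients were wild-type C57BL/6J females carrying an estradiol pellet. The time given for every sample was 4 weeks, whereas the methods of the study describe an earlier collection, and the labels describe injected tissue where the methods describe a sutured fragment. Cre driven by the progesterone receptor gene acts only in donor cells that express that receptor, so host cells in a KO lesion keep Dnmt3a. In bulk lesions of this kind, fewer cells of a type and less RNA per cell cannot be told apart.

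Motile cilia beat by means of dynein arms that pull on the outer microtubule doublets of the axoneme, under the control of radial spokes and the nexin-dynein regulatory complex. FOXJ1 is the transcription factor that switches on this set of genes in multiciliated cells, acting together with RFX factors that bind the X-box, and multicilin, the product of Mcidas, acts above it. In the female tract such cells line the oviduct in large numbers and are sparser in the epithelium of the uterus, where most cells carry at most a primary cilium that does not beat.

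To describe how often members hold motifs of these regulators, promoters were read from RefSeq on GRCm38.p6 (250 bases before to 50 after the start). Of the 73 genes, 58 had at least 1 promoter there. The X-box arm GTTGCC stood in the promoter of 39.7% of these members, on either strand, against 14.1% of all 27025 genes with a promoter and 14.7% of the 12339 that were also tested here. A full X-box, with its arms in inverted orientation and so at times holding the arm searched alone, stood in 3.45% of members, Pifo and Cfap298, against 0.529% of all genes. The forkhead motif TGTTTAC stood in 6.90% of members against 4.05% of all genes. A match describes letters and not a bound site. The following 4 promoters are shown on the strand of the gene, with each match in capitals, because 2 belong to genes with high counts in KO lesion 2 alone (Pifo and Tekt1), 1 to a gene higher in all KO lesions (Tekt2) and 1 to a broadly expressed gene (Cfap298).
Pifo, chr3:106001448-106001747, minus strand: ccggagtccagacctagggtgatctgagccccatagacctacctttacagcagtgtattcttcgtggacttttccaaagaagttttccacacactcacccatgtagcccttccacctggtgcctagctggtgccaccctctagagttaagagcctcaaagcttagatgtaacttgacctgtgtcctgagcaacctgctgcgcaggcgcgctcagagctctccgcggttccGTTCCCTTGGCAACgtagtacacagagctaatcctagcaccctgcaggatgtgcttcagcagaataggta
Tekt1, chr11:72361833-72362132, minus strand: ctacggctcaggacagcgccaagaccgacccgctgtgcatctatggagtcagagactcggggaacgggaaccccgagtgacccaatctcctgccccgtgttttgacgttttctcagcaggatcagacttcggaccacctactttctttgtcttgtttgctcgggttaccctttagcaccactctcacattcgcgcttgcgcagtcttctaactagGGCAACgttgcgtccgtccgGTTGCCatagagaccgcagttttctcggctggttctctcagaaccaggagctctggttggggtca
Tekt2, chr4:126325639-126325938, minus strand: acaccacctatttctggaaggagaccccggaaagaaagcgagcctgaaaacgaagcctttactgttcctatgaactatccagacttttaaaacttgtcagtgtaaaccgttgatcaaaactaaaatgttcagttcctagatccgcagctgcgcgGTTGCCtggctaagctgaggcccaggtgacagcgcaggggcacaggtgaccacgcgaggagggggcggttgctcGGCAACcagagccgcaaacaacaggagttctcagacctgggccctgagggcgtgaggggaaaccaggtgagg
Cfap298, chr16:90934800-90935099, minus strand: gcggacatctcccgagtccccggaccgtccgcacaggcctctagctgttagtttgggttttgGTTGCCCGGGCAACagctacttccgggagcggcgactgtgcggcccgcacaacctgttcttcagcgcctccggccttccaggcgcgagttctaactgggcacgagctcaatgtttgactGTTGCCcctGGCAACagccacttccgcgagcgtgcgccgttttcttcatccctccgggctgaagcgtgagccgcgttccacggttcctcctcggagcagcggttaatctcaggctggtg
These are each the promoter with a match where RefSeq lists several: 1 further promoter each of Pifo, Tekt1 and Tekt2 holds no match, and another of Tekt2 overlaps the one shown.

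Libraries held 45370342 to 57239184 counts. Dnmt3a measured 52.7, 43.9 and 51.7 CPM (counts per 1000000 of the TMM-scaled library total) in WT lesions 1 to 3 and 30.3, 33.5 and 36.2 CPM in KO lesions 1 to 3, so that the groups did not overlap. Its log2 fold change was -0.57 (SE 0.14, edgeR adjusted p = 0.321, 3 lesions per group), short of the study's threshold for calling a gene (an unadjusted p under 0.05 with a log2 fold change past 1) because the change was smaller. The sources do not say which exons are removed, so reads from the rest of the gene still count. WT lesions differed in tissue content. Skeletal muscle markers summed to 43435 and 45733 CPM in WT lesions 1 and 3 against 14.9 in WT lesion 2 and at most 26.9 in any KO lesion, neutrophil markers to 10171 CPM in WT lesion 2 against at most 507 elsewhere, and pancreatic acinar markers to 6599 CPM in WT lesion 3 against at most 16.2 elsewhere.

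The cilia genes stood high together in 1 lesion, KO lesion 2, and not across the KO lesions. The summed level of the 73 genes was 165, 147 and 149 CPM in WT lesions 1 to 3 and 185, 910 and 172 CPM in KO lesions 1 to 3. KO lesion 2 was thus 4.93 times the highest other lesion, and 7.04 times without the 3 most abundant members, while KO lesions 1 and 3 lay just above the WT range. Of the 72 members with at least 1 count, 65 (90.3%) had their highest level in KO lesion 2. Among the 42 members that passed the expression filter the share was 90.5%, where 19.7% of all 18177 tested genes had their highest level in that lesion. The median member stood 3.67 log2 units above its own mean over the 6 lesions in KO lesion 2, and between 0.40 and 0.68 units below it in each of the others.

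**Figure D1:**
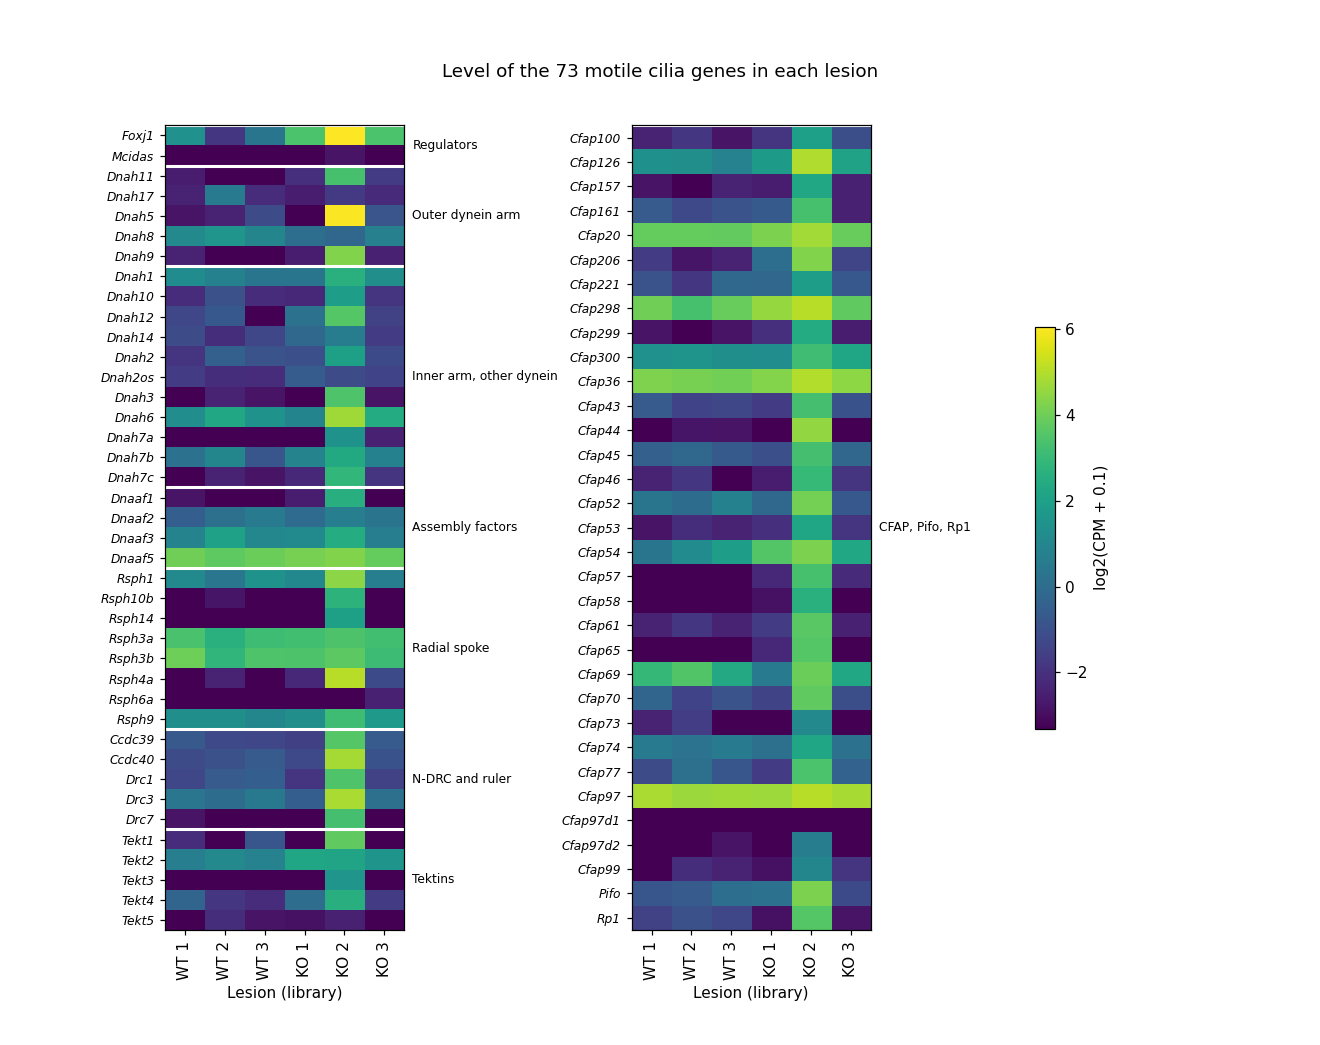
Level of each of the 73 genes (rows, grouped by role) in the 6 lesions (columns), as log2 of CPM plus 0.1. The column of KO lesion 2 is the brightest for 65 genes, while Cfap97, Cfap20, Cfap36, Cfap298, Dnaaf5, Rsph3a and Rsph3b are bright in every column.

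The excess in KO lesion 2 differed widely in size between members. In KO lesion 2, 39 members exceeded every other lesion more than 10-fold, with 3 counts as the floor of the other lesions, 14 exceeded it 2- to 10-fold, 11 by less than 2-fold and 7 did not exceed the next lesion or the floor. The remaining 2 had no count there: Cfap97d1 had none in any library, and Rsph6a had 4 counts in KO lesion 3 alone. Among all genes, 312 of 30336 genes with a count (1.03%) exceeded every other lesion more than 10-fold in KO lesion 2, so the cilia genes made up 12.5% of them. WT lesion 2 had 204 genes above every other lesion by this margin and WT lesion 3 had 60, and no cilia gene was among either.

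**Figure D2:**
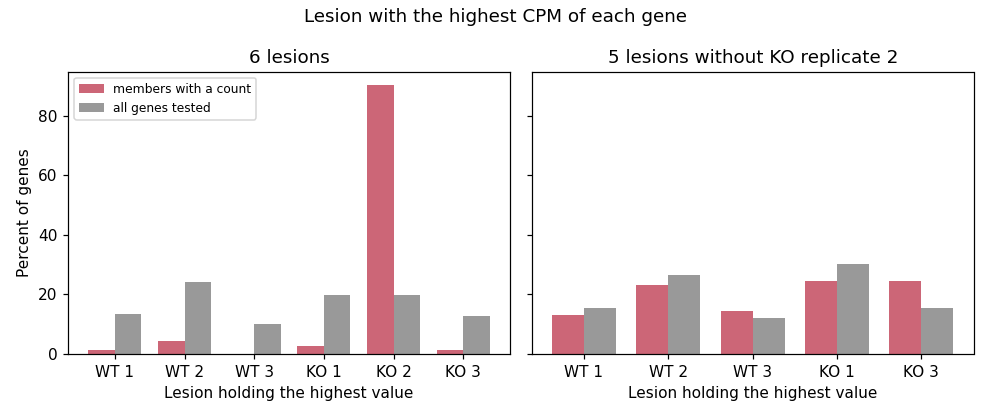
Percent of genes (y axis) whose highest CPM fell in each lesion (x axis), for members with a count (red) and all tested genes (grey), over 6 lesions on the left and without KO lesion 2 on the right. KO lesion 2 held the highest level of 90.3% of members, and without it the members spread over the other 5 lesions, with between 13.0% and 24.6% in each.

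Foxj1 (ENSMUSG00000034227, chr11:116330704-116335399 on GRCm38, minus strand), the transcription factor that marks motile ciliated cells, was higher in all 3 KO lesions. It measured 2.56, 0.180 and 1.15 CPM in WT lesions 1 to 3 and 10.5, 66.8 and 10.5 CPM in KO lesions 1 to 3, from 8 to 120 counts in WT and 504 to 3364 in KO libraries. Every KO lesion lay above every WT lesion, and KO lesions 1 and 3 were alike. The log2 fold change was 4.49 (SE 1.23, edgeR adjusted p = 0.321), and the exact two-sided permutation test gave p = 0.1, the smallest that 3 against 3 lesions allow. Without KO lesion 2 the log2 fold change was 3.02 (adjusted p = 0.668). Relative to Epcam, a general epithelial gene, Foxj1 stood at 10.7, 0.671 and 2.80 per 1000 Epcam CPM in WT lesions and at 22.5, 159 and 49.8 in KO lesions, again without overlap. Mcidas had 2 counts in KO lesion 2 and none elsewhere, which is under the floor of 3 counts. At 25.5 CPM per kilobase of exon, Foxj1 had the highest level per length of all members in KO lesion 2.

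The outer dynein arm, which drives beat frequency, separated into 2 kinds of heavy chain. Dnah5 (chr15:28203752-28472052, plus strand), the chain most often mutated in primary ciliary dyskinesia, measured 0.043, 0.090 and 0.342 CPM in WT lesions and 0, 64.6 and 0.458 CPM in KO lesions 1 to 3. KO lesion 2 was 141 times the next lesion, and KO lesion 1 had no count. Its log2 fold change of 7.07 (SE 2.87, adjusted p = 0.337) became 0.51 without KO lesion 2 (adjusted p = 0.937). Its partner Dnah9 measured at most 0.085 CPM in 5 lesions and 19.5 CPM in KO lesion 2, and Dnah11 at most 0.208 CPM and 9.97 CPM. Dnah8 and Dnah17, known as the chains of the sperm flagellum, were not high in KO lesion 2. Dnah8 measured 2.05, 2.88 and 1.84 CPM in WT lesions and 0.947, 0.755 and 1.58 CPM in KO lesions, lowest in KO lesion 2 (log2 fold change -1.04, SE 0.39, adjusted p = 0.332). That call was lost on leaving out any 1 library other than KO lesion 3, with a log2 fold change between -0.83 and -1.19. Dnah17 was highest in WT lesion 2, at 1.37 CPM, where neutrophil markers were also highest, and at or below 0.199 CPM in the other 5.

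Of the 11 inner arm and other dynein genes, 10 were highest in KO lesion 2 and 4 exceeded the others more than 10-fold. Dnah12 measured 0.299, 0.495 and 0 CPM in WT lesions and 1.03, 11.8 and 0.250 CPM in KO lesions (log2 fold change 4.04, adjusted p = 0.353). Dnah6 had a smaller excess over a higher base, at 2.33, 4.75 and 2.71 CPM in WT lesions and 1.79, 26.3 and 5.31 CPM in KO lesions. Dnah1 ranged from 1.15 to 2.40 CPM in 5 lesions and reached 6.14 CPM in KO lesion 2. Dnah7a, Dnah7b and Dnah7c are near-identical copies, so the division of reads between them is uncertain, and all 3 were highest in KO lesion 2. The antisense gene Dnah2os had only 6 to 32 counts, passed the threshold upward (log2 fold change 1.31, SE 0.45, adjusted p = 0.328) and was highest in KO lesion 1, at 0.561 CPM. The strand setting of the counting is not given in the sources used here, so its reads cannot be told from those of Dnah2.

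Among the 4 assembly factors, which fold dynein arms in the cytoplasm before transport, Dnaaf1 alone followed the axonemal genes, with 302 counts in KO lesion 2 and 0 to 4 counts elsewhere. Dnaaf2, Dnaaf3 and Dnaaf5 were also highest in KO lesion 2, but by 1.09, 1.37 and 1.12 times the next lesion. Dnaaf5 measured 13.2 to 16.3 CPM in WT and 14.3 to 19.4 CPM in KO lesions.

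Radial spoke genes divided in the same way. Rsph4a, a head protein of the spokes of motile cilia, measured at most 0.333 CPM in 5 lesions and 32.8 CPM in KO lesion 2, from 1649 counts. Rsph6a, known as its relative in sperm, had no count in KO lesion 2. Rsph1, another head protein, measured 1.17 to 2.69 CPM in 5 lesions and 21.3 CPM in KO lesion 2. Rsph3a and Rsph3b, near-identical copies between which reads may be divided, were nearly level, at 6.17 to 10.1 and 7.11 to 15.6 CPM in WT lesions against 9.21 to 10.9 and 8.52 to 12.8 CPM in KO lesions.

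The members that belong to the nexin-dynein regulatory complex, with the ruler proteins that set its spacing, were the most uniform class. Ccdc65, a subunit that the symbol rule does not reach, was also high in KO lesion 1 and is given below. All 5 members (Ccdc39, Ccdc40, Drc1, Drc3 and Drc7) exceeded every other lesion more than 10-fold in KO lesion 2. Ccdc40 measured 0.342, 0.405 and 0.555 CPM in WT lesions and 0.316, 27.6 and 0.417 CPM in KO lesions. Drc3 measured 1.17, 0.900 and 1.28 CPM in WT lesions and 0.596, 29.3 and 1.00 CPM in KO lesions. Their log2 fold changes of 4.43 and 3.20 did not pass the threshold (adjusted p = 0.343 and adjusted p = 0.368), and without KO lesion 2 they were -0.24 and -0.48. Ccdc39, the partner of Ccdc40, stood between 0.246 and 0.542 CPM in 5 lesions and at 12.04 CPM in KO lesion 2.

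Tektins are filaments inside the doublet microtubules. Tekt1 had 685 counts in KO lesion 2, 22 in WT lesion 3, 6 in WT lesion 1 and none in the other 3, and Tekt3 had 146 counts in KO lesion 2 and none elsewhere. Tekt4 measured 0.128 to 0.930 CPM in 5 lesions and 5.76 CPM in KO lesion 2. Tekt2 behaved differently, at 1.54, 2.03 and 1.71 CPM in WT lesions and 4.47, 4.37 and 2.83 CPM in KO lesions 1 to 3. KO lesions 1 and 2 were level and KO lesion 3 was also above every WT lesion (log2 fold change 1.15, SE 0.29, adjusted p = 0.321), and the difference was nearly as large without KO lesion 2 (1.06, adjusted p = 0.668). Tekt5 had at most 6 counts in any library.

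The CFAP genes, proteins of cilia and flagella named for their location, formed the largest class together with Pifo and Rp1. Of these 33, 32 were highest in KO lesion 2 and 21 exceeded the others more than 10-fold. Cfap44 had 1178 counts in KO lesion 2 and 0 to 2 elsewhere. Pifo measured 0.333 to 1.05 CPM in 5 lesions and 18.5 CPM in KO lesion 2. Rp1, a doublet microtubule protein better known from photoreceptors, measured 0.256, 0.405 and 0.299 CPM in WT lesions and 0.035, 11.9 and 0.042 CPM in KO lesions. KO lesions 1 and 3 thus lay below all WT lesions at 2 counts each. Cfap97, Cfap36 and Cfap298 were expressed in every lesion, from 9.99 to 33.0 CPM, and were 1.14, 1.41 and 1.39 times the next lesion in KO lesion 2.

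Of the 19 tested genes of this class, 2 were still called higher without KO lesion 2, beside 1.48% of all genes tested. Rp1 was called lower, beside 3.48%. Cfap54, a central apparatus protein, measured 1.15, 2.21 and 3.63 CPM in WT lesions and 11.6, 18.7 and 4.77 CPM in KO lesions (log2 fold change 2.32, SE 0.64, adjusted p = 0.321), and 1.82 without KO lesion 2 (adjusted p = 0.668). Cfap206, a radial spoke adaptor, measured 0.213, 0.045 and 0.085 CPM in WT lesions and 0.947, 19.3 and 0.292 CPM in KO lesions (5.86, SE 1.84, adjusted p = 0.328), and 2.41 without KO lesion 2 (adjusted p = 0.668), where KO lesion 3 rests on 14 counts. The Cfap206 call was lost with limma voom (4.37, adjusted p = 0.240) and without WT lesion 2 or 3. Cfap126 measured 1.71 to 2.52 CPM in WT lesions and 3.33, 30.4 and 4.13 CPM in KO lesions (2.52, SE 0.93, adjusted p = 0.332), and its 0.76 without KO lesion 2 did not pass (adjusted p = 0.668). Its call was also lost with limma voom (1.95, adjusted p = 0.268) and without any 1 WT lesion. All 3 KO lesions lay above all WT lesions for Cfap126 too, as for Cfap20 and Cfap36, which measured 13.9 to 14.3 and 16.8 to 18.7 CPM in WT and 14.7 to 27.2 and 20.0 to 31.2 CPM in KO lesions. The same held for 10.7% of all tested genes.

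**Figure D3:**
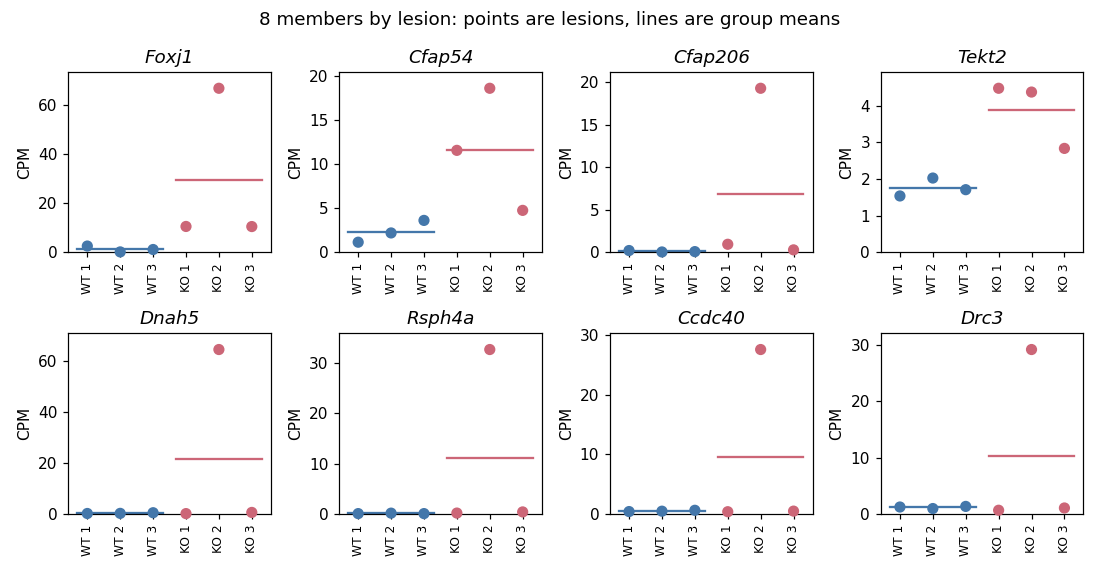
CPM (y axis, from 0) of 8 members in each lesion, WT in blue and KO in red, with a line at each group mean. In the upper row (Foxj1, Cfap54, Cfap206, Tekt2) all 3 KO lesions lie above all WT lesions, and in the lower row (Dnah5, Rsph4a, Ccdc40, Drc3) only KO lesion 2 stands apart by more than 10-fold. Cfap206 and Rsph4a show both traits, Rsph4a with few counts outside KO lesion 2.

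For KO against WT as a whole, the threshold of the study was applied to the 42 members that passed the filter. It called 7 higher (Foxj1, Cfap54, Tekt2, Cfap206, Dnah2os, Cfap126 and Dnah5) and 1 lower (Dnah8), where 3.1% of all tested genes were called higher and 5.85% lower. The Dnah5 call was lost with limma voom (1.48, adjusted p = 0.827) and without KO lesion 2 or any 1 WT lesion. The Dnah2os call was lost with DESeq2 (unadjusted p = 0.0502) and in edgeR without the expression filter. It was also lost without KO lesion 1, KO lesion 2, WT lesion 2 or WT lesion 3. These 8 were also the only members under an unadjusted p of 0.05, which 14.7% of all tested genes were. No member passed an adjusted p of 0.05 in edgeR, which 1 of 18177 genes (0.0055%) did. DESeq2 gave such a p to 5 members, Foxj1, Cfap206, Cfap54, Tekt2 and Cfap100, where 5.31% of the genes it adjusted passed. The expression filter asks for counts in several libraries. Members with counts in KO lesion 2 almost alone, such as Cfap44, were therefore not tested, and these numbers of calls do not describe all 73. DESeq2 gave no p to 34 of 72 members (47.2%) against 1.73% of all genes, because its filter took 1 library as an outlier for them. It called 15 members higher, beside 2.82% of all genes, and 45 with that filter off, beside 3.39%. EdgeR called 27 higher without the expression filter, beside 2.61%. The median log2 fold change of tested members was 1.86, beside 0.01 for all tested genes.

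Without KO lesion 2, the median log2 fold change of the 42 tested members was 0.08, beside 0.00 over all 18925 genes tested. Foxj1, Cfap54, Cfap206 and Tekt2 were still called higher, beside 1.48% of all genes, and Rp1 was called lower (log2 fold change -2.98, adjusted p = 0.668), beside 3.48%. In 14 of the 73 members all KO lesions lay above all WT lesions, 8 of them among the 42 tested, where 10.7% of all tested genes did. These 8 were Foxj1, Cfap54, Cfap206, Tekt2, Cfap126, Cfap20, Cfap36 and Dnah2os. In Dnah8 alone all KO lesions lay below all WT lesions, as in 8.74% of all tested genes.

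**Figure D4:**
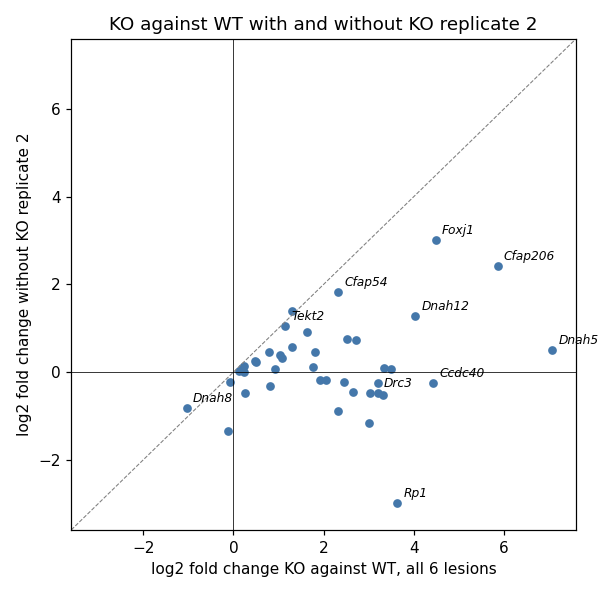
Log2 fold change of KO against WT for each tested member with all 6 lesions (x axis) and without KO lesion 2 (y axis), with a dashed line where both are equal. Most points lie near 0 on the y axis whatever their place on the x axis, and Foxj1, Cfap206, Cfap54 and Tekt2 are among the few above 1 on both.

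Genes of motile cilia that the symbol rule does not reach were also mostly highest in KO lesion 2. Of 49 such axonemal genes, 46 were highest in KO lesion 2 (19.7% of all tested genes were) and 25 exceeded the others more than 10-fold (1.03% of all genes with a count did). Of the 27 tested, 8 were called higher, beside 3.1% of all tested genes. Without KO lesion 2, 4 were called higher, beside 1.48%, and 1 lower, beside 3.48%. Ccdc65, a subunit of the regulatory complex, measured 3.12, 0.720 and 1.54 CPM in WT lesions and 23.8, 58.5 and 2.71 CPM in KO lesions (log2 fold change 3.98, adjusted p = 0.321), so KO lesion 1 was also high and KO lesion 3 lay within the WT range. Hydin, a central apparatus protein, was likewise above every WT lesion in KO lesion 1 at 4.63 CPM, against 0.090 to 1.24 CPM in WT lesions, at 1.92 CPM in KO lesion 3, and reached 19.6 CPM in KO lesion 2. The 3 most abundant of these genes did not mark KO lesion 2: Tubb4b, a tubulin, ranged from 133 to 249 CPM, Tppp3 from 25.0 to 94.4 CPM, and Mlf1 was highest in WT lesions 1 and 3, at 45.8 and 87.6 CPM, where the skeletal muscle markers also stood.

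Of 15 regulators of multiciliated cells, 10 were highest in KO lesion 2. Trp73, which acts above Foxj1, measured 5.58 CPM there and at most 0.405 CPM elsewhere, and Ccdc78, a protein of centriole amplification, 8.88 CPM and at most 0.043 CPM. Rfx3, which binds the X-box, measured 16.2 CPM in KO lesion 2 and 4.53 to 7.33 CPM elsewhere. The abundant Tfdp1, Myb and E2f4, which also serve cycling cells, did not follow this pattern, and E2f4 ranged from 29.9 to 42.3 CPM.

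Genes of intraflagellar transport and the primary cilium, which every ciliated cell uses, had a smaller excess there. Their summed level was 639, 636 and 637 CPM in WT lesions and 693, 965 and 728 CPM in KO lesions. Of 44 genes, 34 were highest in KO lesion 2, none exceeded the others more than 10-fold, and edgeR called 0 past the threshold of size, with 5 of 44 under an unadjusted p of 0.05, beside 14.7% of all tested genes. DESeq2 called 0 past that threshold and gave 3 an adjusted p under 0.05, beside 5.31% of genes. In 14 of them all KO lesions lay above all WT lesions, beside 10.7% of all tested genes. Among these Ift122 measured 15.7 to 18.1 CPM in WT and 24.3 to 29.3 CPM in KO lesions (log2 fold change 0.69, adjusted p = 0.321).

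Markers of other cells were set beside the levels in KO lesion 2. Of 23 markers of uterine and oviduct epithelium, all detected, 6 were highest there, and their summed level was 14198 to 24394 CPM in WT and 20577 to 42732 CPM in KO lesions, highest in KO lesion 1. Ovgp1, the glycoprotein that secretory cells of the oviduct release, was the exception, at 39.3, 2.61 and 35.6 CPM in WT lesions and 50.5, 4104 and 15.6 CPM in KO lesions 1 to 3. Epcam was 420 CPM in KO lesion 2, within the 211 to 468 CPM of the others. Of 20 sperm markers, 12 had at most 3 counts in every library and Prm1 and Tnp1 had none, and their sum was 27.5 to 35.6 CPM in WT and 31.5 to 52.5 CPM in KO lesions. Spata18 alone among them exceeded the other lesions more than 10-fold in KO lesion 2, at 20.2 CPM. Sums of mesothelium markers (855 CPM against 453 to 824 CPM in the others) and intestinal epithelium markers (6.99 CPM) were highest in KO lesion 2. Those of B and plasma cells, smooth muscle, skeletal muscle and adipocytes lay within the range of the other lesions. The summed markers of stroma, endothelium, macrophages, T cells and neutrophils were lowest in KO lesion 2. Pancreatic acinar and retinal photoreceptor markers were also lowest there, at 7.67 and 2.94 CPM. Stroma markers summed to 5130 CPM there, against 14002 to 15497 CPM in WT lesions, 7321 CPM in KO lesion 1 and 17189 CPM in KO lesion 3. Endothelium markers summed to 302 CPM against 440 to 867 CPM in the others, macrophage markers to 1600.2 CPM against 2062 to 6583 CPM, T-cell markers to 16.8 CPM against 21.9 to 124 CPM and neutrophil markers to 44.7 CPM against at least 94.4 CPM. What part the tissue content of KO lesion 2 has in the levels of the cilia genes was not tested.

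**Figure D5:**
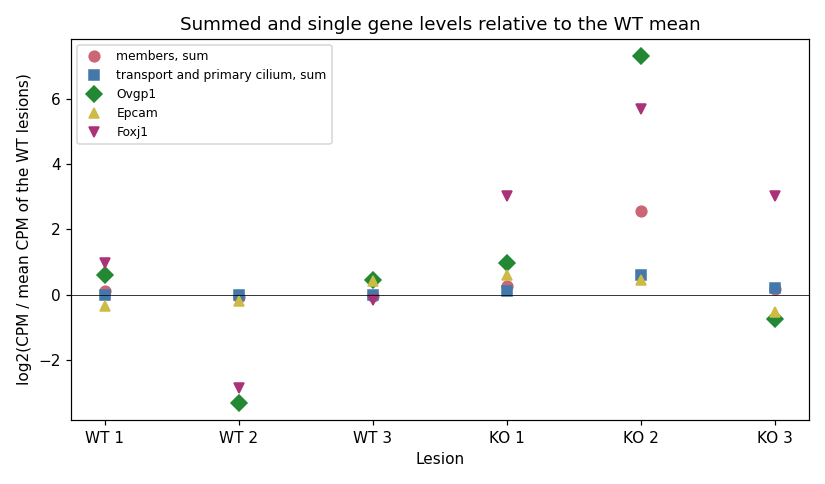
Log2 of the CPM in each lesion (x axis) over the mean of the WT lesions, for the summed members, the summed transport and primary cilium genes, Ovgp1, Epcam and Foxj1. In KO lesion 2 Ovgp1 stands 7.31, Foxj1 5.69 and the member sum 2.57 above the WT mean, while in KO lesions 1 and 3 Foxj1 stands 3.02 above it and the member sum at most 0.27.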

How the data were processed

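RNA of 6 mouse lesions was sequenced from TruSeq stranded mRNA libraries. The authors deposited whole-number counts per gene, not normalized, for 56884 genes. The study's methods name trimming and counting on the Galaxy platform and mapping to GRCm38, while the submitters' processing notes name GRCm39, Trimmomatic, featureCounts and DESeq2. Between 71.9% and 74.1% of nonzero counts were even, so mates may have been counted separately. Symbols came from GENCODE M21 (GRCm38): 51948 gene IDs matched without version and 35 with it, so coordinates may differ from the gene models that were counted. A further 9 genes carry a matching name only in RefSeq, such as Dnaic1 and Dnaic2, and were not members, and no promoter of mouse chromosome 18 was read.

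KO was compared with WT in edgeR 4.0.16 under R 4.3.3 (filterByExpr, which kept 18177 genes, TMM factors of 0.962 to 1.05, quasi-likelihood test, genotype as the only term, biological coefficient of variation 44.2%), with Benjamini-Hochberg adjustment over all tested genes. The script was tested on simulated data. DESeq2 1.42.0, limma 3.58.1 voom, other scalings and filters, a replicate block and leaving out each library were alternatives. CPM used TMM-scaled totals without a prior count, and the floor was 3 counts, which covers counting error only. The log2 differences of members from their own mean used log2 CPM with a prior count of 2, on which their size depends where counts are low. The study's methods describe 1 fragment of a donor placed in a recipient, and 3 donors for the 3 sequenced lesions of each genotype. They do not match each sequenced lesion to a donor, so p-values measure the spread between these lesions.

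Genes were named where the member rule names them, where they were among the 3 most abundant of a role or of 2 further lists, or where edgeR or DESeq2 called them. Dnah17, Rsph1, Rsph6a, Cfap44, Tekt3, Tekt5, Cfap20, the Dnah7 copies, Drc1, Drc7 and the list genes given beside them were chosen after their values were seen. The members and lists were chosen with earlier results of these data known. Marker lists of endometrial stroma, macrophages, T cells, B and plasma cells, smooth muscle, adipocytes, mesothelium and endothelium held 0 genes more than 10-fold above every other lesion in KO lesion 2. The sums of stroma, macrophages, T cells and endothelium were lowest there, and that of mesothelium was highest. The intestinal epithelium list held 1 gene past that margin (Apoa4, 0.993 CPM).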

Additional observations from a re-analysis of the deposited data

How the results depend on the processing

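The count of 7 members higher in KO became 27 without a filter, 3 with at least 10 counts in every library, 15 with DESeq2 and 45 with DESeq2 without its outlier filter, an alternative chosen after seeing the data. Leaving out 1 library in turn gave 3 to 19, namely 3 in the absence of WT replicate 2 or WT replicate 3, 4 in that of KO replicate 2, 18 in that of KO replicate 3 and 19 in that of KO replicate 1. Without KO replicate 2, 1.48% of all genes tested were called higher. Shares over all genes are not given here for the other left-out libraries, the filter of 10 counts or the replicate block. Those counts of members therefore cannot be set against all genes. The 1 member lower became 0 with upper quartile scaling and with the replicate block, and 0 to 1 on leaving out libraries. The median log2 fold change of 1.86 ranged from 0.077, which omits KO replicate 2, to 2.55 on leaving out libraries, and from 0.88 with the replicate block to 3.10 without a filter under the other alternatives. The summed level of KO replicate 2 over the next lesion moved from 4.93 to 7.04 without the 3 most abundant members. Foxj1 ranged from 3.02 to 5.44 on leaving out libraries and was removed by the strict filter, which needs 10 counts in every library. The cause of these changes was not tested beyond the libraries and filters named.

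Replicate numbers did not pair the lesions, since deviations of same-numbered WT and KO lesions correlated at 0.03, -0.15 and -0.20. With the replicate block 5 members were called higher and 0 lower, Foxj1 was 4.04 (adjusted p = 0.630, no longer past the threshold), Cfap206 at 3.75, Cfap126 at 1.74 and Dnah5 at 3.11 also lost their calls, and Rp1 turned to -0.37. Of 42 tested members, 14 turned from higher to lower in KO, between -0.18 and -2.98, when KO replicate 2 was omitted. Among the genes named by rule, directions turned on leaving out a library for Ccdc40 (-0.24 to 4.998), Drc3 (-0.48 to 3.74), Dnaaf3 (-0.48 to 0.73) and Rp1 (-2.98 to 4.21), each when KO replicate 2 was omitted, for Dnaaf2 (-0.029 to 0.54) and for Rsph3b (-0.32 to 0.23), whose change was also 0.015 with upper quartile scaling. With 3 lesions per group and 1 that stands apart, low counts in the other lesions limit what can be seen for members under 3 counts.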
